A study of Rattus norvegicus with 20 samples.

Results

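Male Sprague-Dawley rats with infantile spasms triggered by N-methyl-D-aspartate (NMDA) received adrenocorticotropic hormone (ACTH). They are compared here with rats of the same age that had no spasms. The measurement was gene expression in the hypothalamic arcuate nucleus (ARC) at postnatal day 15 (P15), on Agilent 2-colour rat arrays. The first group, BYA, was exposed before birth to betamethasone, had NMDA spasms and received ACTH. The other group, BNS, had the same prenatal betamethasone, no spasms, and saline after birth. They make up 8 of the 20 samples of the series, 4 in BYA and 4 in BNS, chosen by their group labels. The dams of both groups were injected with betamethasone on gestational day 15, 2 times, at 0.4 mg/kg. NMDA was given to BYA pups on postnatal days 12, 13 and 15. The labels start ACTH on day 13, before the NMDA of that day, whereas the methods start it after the first trigger on day 12. The last NMDA was given on day 15, the day on which the rats were killed for the tissue. The comparison asks what differed from spasm-free ARC in rats given both NMDA and the hormone. The other 12 samples are used beside it: BYS (betamethasone, spasms, saline), BYP (betamethasone, spasms, the complement C5a receptor antagonist PMX53) and SNS (prenatal saline, no spasms, saline), 4 each.

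The spasms of this model are triggered with NMDA and do not start on their own, and ACTH was given only to pups with spasms. The difference between BYA and BNS therefore holds NMDA, spasms and ACTH together, and these cannot be told apart from BYA and BNS alone. The methods describe 4 rats in each group. The labels give a replicate number and no litter, and they describe litters culled to 4 males, so p-values measure the spread between these samples, which may share a litter. BYA lay on 1 slide and BNS on another, so that slide and group cannot be told apart between them. Replicates 1 and 3 of a group carried the Cy3 dye and replicates 2 and 4 Cy5. ARC peptides were among the brightest genes of both groups: Npy lay at the 99.6th and Agrp at the 98.8th percentile of BNS levels.

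ACTH is cut from pro-opiomelanocortin (Pomc), drives the adrenal cortex to release glucocorticoids, and also acts on melanocortin receptors in the brain. Glucocorticoids bind the receptor Nr3c1, which raises genes such as Fkbp5, Tsc22d3 and Sgk1 and, with Nfkbia, restrains inflammatory transcription. Seizures switch on immediate early genes within minutes in firing neurons, among them Fos, Junb and Arc, and chemokines such as Ccl2 and Ccl3 in glia and vessels. The ARC houses feeding neurons with Npy and Agrp or with Pomc and Cartpt, next to neurons that release growth hormone-releasing hormone, dopamine, kisspeptin and galanin.

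BYA ARC differed from BNS ARC in few genes at the threshold, most of them higher. Of 13292 genes tested, 32 passed an adjusted p under 0.05 (0.241%), 27 higher in BYA (0.203%) and 5 lower (0.0376%). The increases included the chemokine Ccl3, the neuropeptides Pth2 and Gal, the opioid receptor Oprd1, the activity gene Arc and the NF-kappaB inhibitor Nfkbia. The decreases were Vps4b, Tubb2b, Dhrs7, Kmt5c and Vegfc. Values are log2 intensity relative to the sample's median, and differences are BYA minus BNS on that scale with a standard error (SE) from limma. The median difference of all genes was 0.046, with quartiles of -0.125 and 0.208, and 57.3% of genes had a positive difference. At an unadjusted p under 0.05, 855 genes were higher (6.43%) and 440 lower (3.31%). The SNS sample numbered 2 has a dye label in doubt; without it 178 genes passed, 147 higher and 31 lower. The count was 13, 14 and 20 without BYA replicates 2, 3 and 4, and 11, 84 and 9 without BNS replicates 2, 3 and 4. The balance of directions turned without the array of BYA replicates 1 and 2 (80 higher, 333 lower) and without that of BYA replicates 3 and 4 (6 higher, 18 lower), and with the 75th percentile as centre it was 5 higher and 5 lower.

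**Figure D1:**
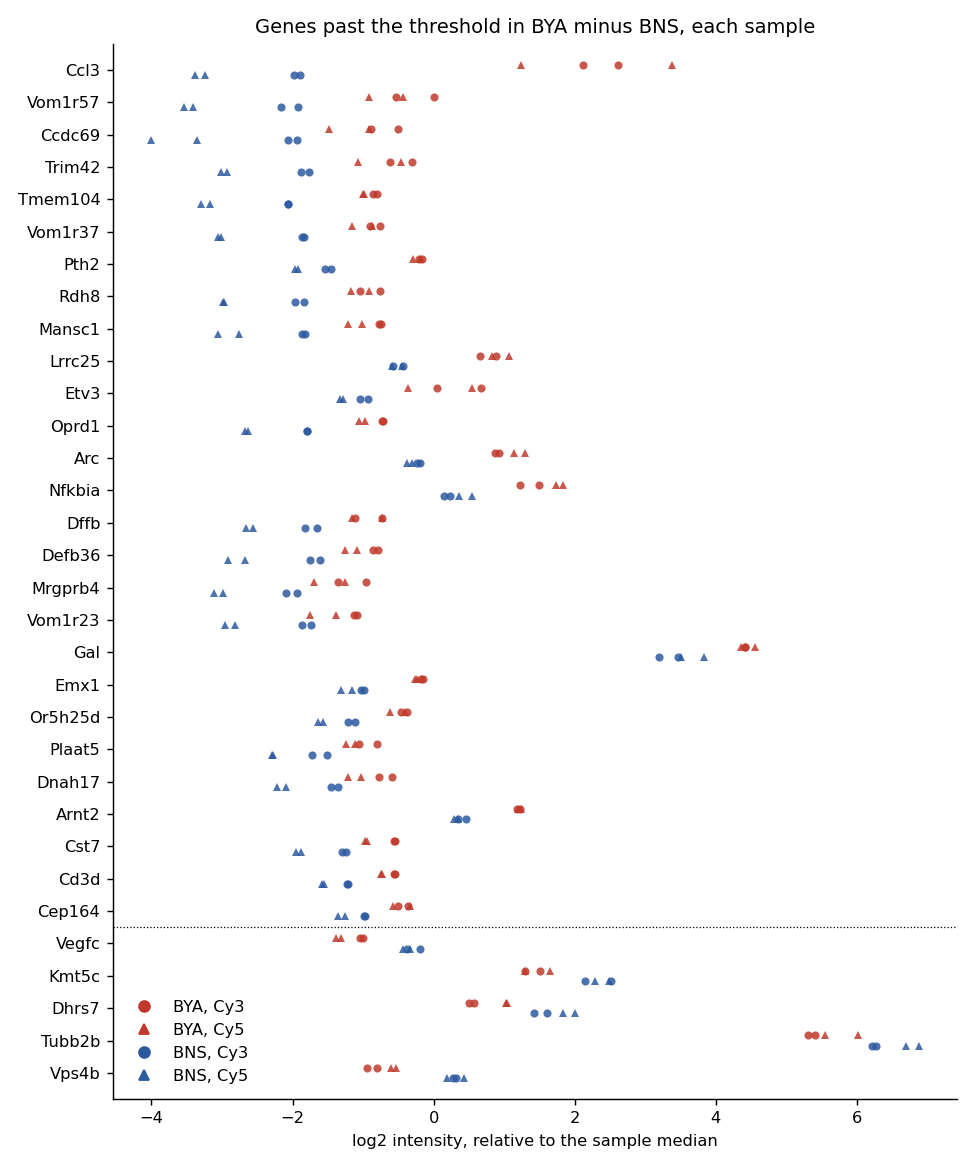
Log2 intensity relative to the sample median (x axis) of the 32 genes past the threshold, 1 gene a row, BYA in red above BNS in blue, circles for Cy3 and triangles for Cy5 samples. The 27 genes above the dotted line were higher in BYA and the 5 below it lower; every gene but Vom1r23 has groups that do not overlap.

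The smallest adjusted p belonged to Lrrc25, a leucine-rich repeat membrane protein of myeloid cells. It was measured by 1 spot, as were Pth2, Oprd1, Nfkbia, Emx1, Tmem104, Etv3 and all the decreases. For these genes no agreement between spots can be given. Lrrc25 measured 0.89, 1.07, 0.66 and 0.82 in BYA, against -0.44, -0.45, -0.58 and -0.59 in BNS. The groups lay more than 1 log2 unit apart at every sample. The difference was 1.38 ± 0.145 (SE, n = 4 each), a 2.60-fold higher intensity, with an adjusted p of 2.26e-04 (limma). Lrrc25 was also the only one of the 27 increases that differed between BYA and BYS, by 0.93 (adjusted p = 5.89e-04), a contrast in which 4.98% of all genes were higher. BYS samples lay at -0.08, 0.20, -0.20 and -0.20, BYP samples between 0.34 and 0.68, and SNS samples between 0.15 and 0.47. BYA held the highest mean of the 5 groups, although BYP replicate 2 reached the lowest BYA value, and its difference from SNS, 0.61, had an adjusted p of 0.192.

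Pth2, the peptide TIP39 that activates the parathyroid hormone 2 receptor, had BYA values close to each other. It measured -0.21, -0.29, -0.17 and -0.20 in BYA, against -1.54, -1.97, -1.46 and -1.92 in BNS. All BYA values lay above the highest BNS value. The difference was 1.50 ± 0.17 (adjusted p = 3.27e-04, limma), a 2.84-fold higher intensity. SNS samples, with no betamethasone and no spasms, lay between at -0.84, -1.25, -0.74 and -1.09, and BYA minus SNS was 0.77 (adjusted p = 0.175). Pth2 and Lrrc25 were the only genes that passed with the slide as a random block (adjusted p = 0.00623 for Pth2 and 0.00711 for Lrrc25, limma). Only SNS samples lay on more than a single slide, and every other group filled a slide of its own. That fit therefore cannot separate a slide effect from the difference between BYA and BNS, for these genes or others.

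Oprd1, which encodes the delta opioid receptor, was at -0.72, -1.06, -0.73 and -0.97 in BYA, against -1.80, -2.63, -1.80 and -2.68 in BNS. No BYA value reached down to BNS, and within BNS the Cy5 samples were the lower ones. The difference was 1.36 ± 0.20 (adjusted p = 0.00658, limma). Gal, the peptide galanin of growth-axis and feeding neurons, was the only member of 23 measured ARC peptides and enzymes past the threshold and the brightest of the increases. It read 4.41, 4.55, 4.41 and 4.36 in BYA, against 3.46, 3.83, 3.20 and 3.51 in BNS. All 11 of its spots were higher in BYA, by 0.66 to 1.12, and the gene's difference was 0.93 ± 0.17 (adjusted p = 0.0267). It did not pass without BYA replicate 2, BYA replicate 3 or BNS replicate 4. SNS samples had 4.15, 4.16, 3.77 and 3.83, nearer to BYA than BNS was. In bulk tissue, more cells of a type and more RNA per cell cannot be told apart.

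The largest difference was that of Ccl3, a chemokine released by microglia and macrophages that draws in other immune cells. It measured 2.61, 3.38, 2.12 and 1.24 in BYA, against -1.98, -3.24, -1.89 and -3.38 in BNS. Every BYA value lay above its sample's median and every BNS value far below. The difference was 4.96 ± 0.84 (adjusted p = 0.0201, limma), and the 9 spots with a value in every sample gave 4.31 to 5.44. It did not pass without BNS replicate 4. SNS samples fell into a high pair, 0.41 and 0.53, and a low pair, -2.08 and -2.96, so that BYA minus SNS was 3.09 with an adjusted p of 0.224.

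Ccl3 was the only one of 17 measured chemokines and cytokines past the threshold. None was lower at the threshold, 14 had a positive difference, and the list's median was 0.931, beside 0.046 over all genes. In BYS minus BNS, which shares the BNS samples, the median was 0.713, and in BYA minus BYS it was 0.057. Ccl2, which attracts monocytes, read 1.27, 2.11, 0.47 and 0.12 in BYA, against -2.39, -4.29, -2.09 and -4.29 in BNS, with no overlap. Its difference of 4.26 ± 1.24 had an adjusted p of 0.210. Spp1, osteopontin of activated microglia, ranged widely within BYA, with 1.22, 4.10, 2.24 and -0.19, against -1.89, -2.88, -1.70 and -2.79 in BNS (4.16 ± 1.25, adjusted p = 0.236). Il1b (1.95 ± 0.63), Cxcl10 (1.71) and Tnf (1.34), cytokines and a chemokine of the innate response, had positive differences that did not pass. Il33, an alarmin of glia, had the lowest difference of the list, -0.32. Of 10 measured chemokine and cytokine receptors none passed, and their median was 0.358.

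**Figure D2:**
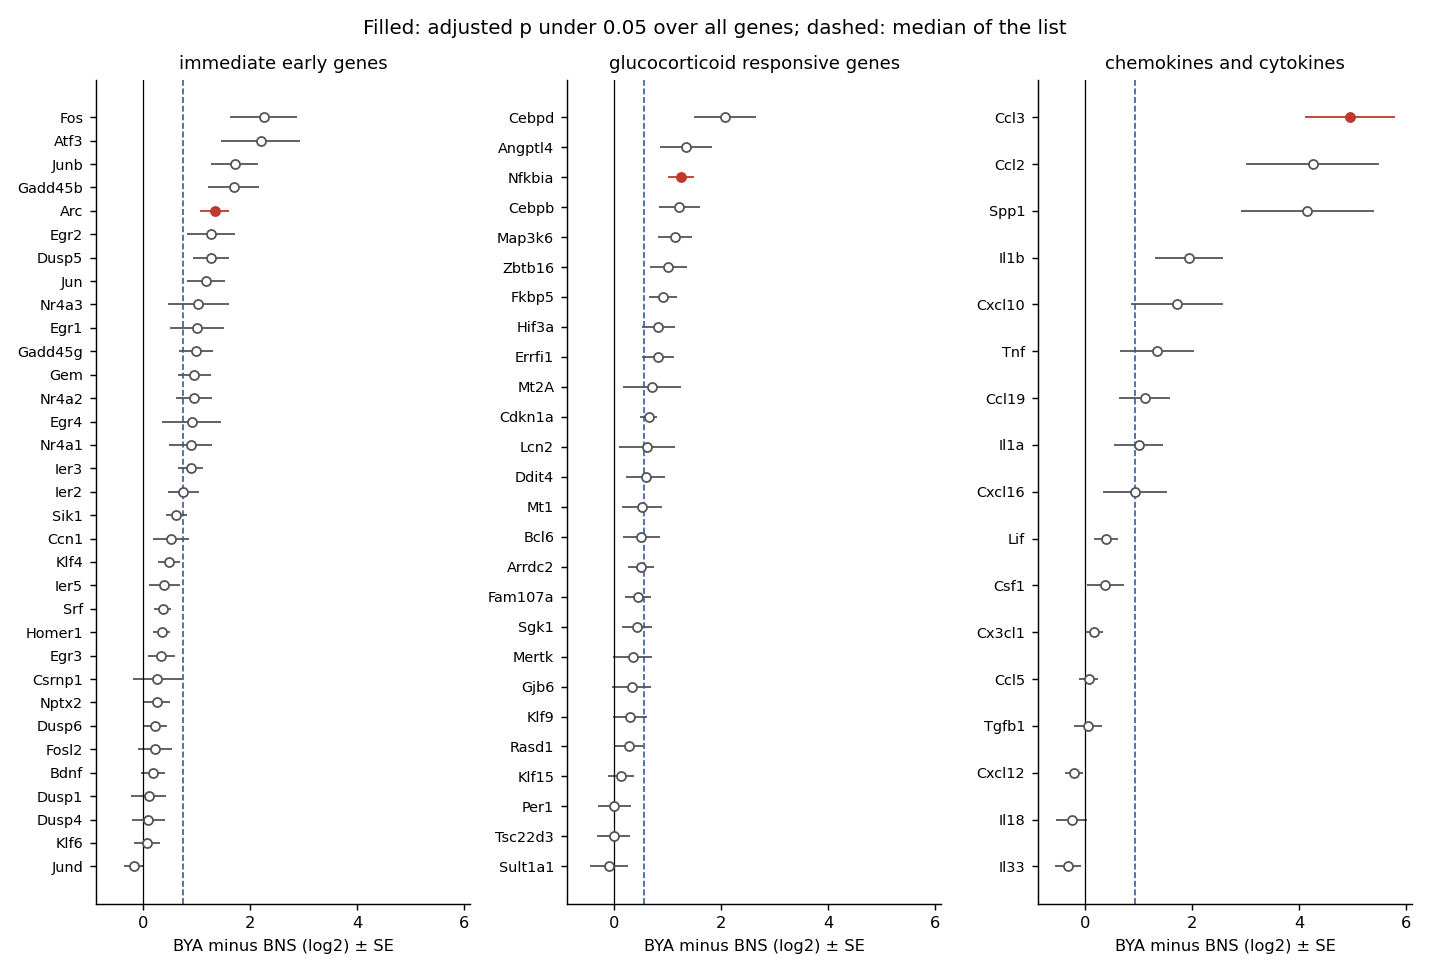
Difference BYA minus BNS (log2, x axis) with its SE for each measured member of 3 gene lists, 33 immediate early genes, 26 glucocorticoid responsive genes and 17 chemokines and cytokines. Filled points passed the adjusted threshold (Arc, Nfkbia and Ccl3), and dashed lines mark the list medians of 0.748, 0.553 and 0.931.

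Arc, an immediate early gene whose product removes AMPA receptors from synapses, measured 0.87, 1.29, 0.92 and 1.14 in BYA, against -0.24, -0.38, -0.19 and -0.30 in BNS. All BYA samples lay above 0 and all BNS samples below. The difference was 1.33 ± 0.27 (adjusted p = 0.0414, limma), 1.19 to 1.49 over its 10 spots. BYS samples lay at 1.20, 1.27, 1.04 and 0.57, and BYA minus BYS was 0.04 (adjusted p = 0.948). Of the 8 fits that each left out 1 sample, Arc passed in 2, those without BYA replicate 1 and BNS replicate 3.

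Arc was the only one of 33 measured immediate early genes past the threshold. None was lower at the threshold, and 32 had a positive difference. In 15 every BYA sample lay above every BNS sample (5.21% of all genes), and the median was 0.748. In BYS minus BNS, which shares the BNS samples, the list's median was 0.713, and in BYA minus BYS it was 0.085. Fos, a subunit of the AP-1 transcription factor, varied within BYA, with 0.10, 1.63, 1.00 and 2.13, against -1.07, -0.98, -1.21 and -0.90 in BNS. Its difference of 2.26 ± 0.62 had an adjusted p of 0.177. Junb, its partner in AP-1, read 2.59, 3.57, 2.74 and 3.15 in BYA, against 1.17, 1.45, 0.92 and 1.67 in BNS (1.71 ± 0.43, adjusted p = 0.130). Both genes were without overlap, with a spread in BYA several times that in BNS for Fos. Atf3, a stress-induced repressor, had 2.20 ± 0.74 with overlapping groups, and Gadd45b, a stress sensor, 1.69 ± 0.49. Egr1 (1.01), Egr2 (1.27) and Nr4a1 (0.89), transcription factors of the early response, did not pass, and Jund, an AP-1 subunit that is present at rest, was lowest at -0.17.

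Nfkbia encodes IkappaB-alpha, which holds NF-kappaB in the cytoplasm and is itself a target of both NF-kappaB and the glucocorticoid receptor. It measured 1.22, 1.74, 1.50 and 1.83 in BYA, against 0.23, 0.36, 0.14 and 0.55 in BNS, and SNS lay at 0.43, 0.42, 0.38 and 0.66. The spasm-free groups were close together and BYA stood above both. The difference was 1.25 ± 0.25 (adjusted p = 0.0391, limma). Like Arc, it passed only without BYA replicate 1 or BNS replicate 3 when 1 sample was left out. Icam1, a vessel adhesion molecule that NF-kappaB induces, read 0.69, 1.27, 0.89 and -0.97 in BYA, against -1.26, -1.84, -1.33 and -2.03 in BNS (2.09 ± 0.54, adjusted p = 0.138). BYA replicate 4 lay near the BNS samples. The list of 17 NF-kappaB feedback and vessel activation genes had a median of 0.424 with none past the threshold. Nfkbia was not in that list, because it was counted among the glucocorticoid responsive genes.

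The 250 bases before the start sites of Nfkbia and Icam1 are shown because both hold a kappaB-type motif and both genes were higher in every BYA sample. The sequences are from RefSeq build GRCr8, at chr6:78597073-78597322 on the minus strand for Nfkbia and chr8:27829595-27829844 on the plus strand for Icam1. Capitals mark the motif GGAAATTCC, searched on both strands. It begins 31 bases before the start site of Nfkbia and 218 before that of Icam1.
Nfkbia: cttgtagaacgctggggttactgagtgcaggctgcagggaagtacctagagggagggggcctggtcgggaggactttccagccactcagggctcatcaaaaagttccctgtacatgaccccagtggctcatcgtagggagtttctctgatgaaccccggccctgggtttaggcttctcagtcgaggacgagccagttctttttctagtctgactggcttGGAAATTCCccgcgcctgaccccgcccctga
Icam1: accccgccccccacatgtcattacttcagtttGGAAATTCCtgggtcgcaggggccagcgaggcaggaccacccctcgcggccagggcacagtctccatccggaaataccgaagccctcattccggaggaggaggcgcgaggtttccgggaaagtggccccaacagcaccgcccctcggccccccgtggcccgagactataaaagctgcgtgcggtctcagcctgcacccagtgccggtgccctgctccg
The motif stood in the promoters of 0.317% of 27457 genes and of 0.337% of the 10984 tested genes with a promoter. Of the 27 increases 20 had a promoter and 1 held it, Nfkbia. None of the 5 decreases did. In the NF-kappaB list 2 of 15 genes with a promoter held it, Icam1 and Nfkbiz, and Cxcl10 held it among 12 chemokines and cytokines. Nfkbiz, an IkappaB protein of the nucleus, read -2.20, -3.88 and -2.19 in BYA, with no value in replicate 4, against -2.28, -4.41, -2.04 and -4.01 in BNS, so the groups overlapped. A match describes these letters only, and the genes were chosen for display after their values were seen.

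Nfkbia was also the only one of 26 measured glucocorticoid responsive genes past the threshold. None was lower at the threshold, 23 had a positive difference, and the median was 0.553. The list's median was 0.721 in BYS minus BNS, without ACTH, and -0.053 in BYA minus BYS, contrasts that share samples with BYA minus BNS. Cebpd, a transcription factor of the acute phase response, read 3.34, 4.41, 3.83 and 3.35 in BYA, against 1.72, 1.72, 1.49 and 1.71 in BNS. BNS was tight and every BYA sample stood more than 1 log2 unit above it, yet the difference of 2.07 ± 0.58 had an adjusted p of 0.187 in the fit, whose error comes from all 20 samples. Cdkn1a, a cell cycle inhibitor, had 0.65 ± 0.16 (adjusted p = 0.120) and Fkbp5, a chaperone that lowers hormone binding by the receptor, 0.92 ± 0.26 (adjusted p = 0.200) with overlapping groups. Angptl4 (1.34), Cebpb (1.22), Map3k6 (1.14) and Zbtb16 (1.01) had positive differences that did not pass. Sgk1, a kinase, had 0.43. Tsc22d3 (GILZ, -0.01) and Per1 (0.00), textbook targets of the hormone receptor, had nearly equal means in both groups, and Sult1a1 was lowest at -0.10. Per1 lay low on the scale, at -2.31, -3.98, -1.86 and -3.45 in BYA, against -2.06, -3.92, -1.76 and -3.86 in BNS. Equal means at such a level say little about Per1.

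None of 22 measured genes for ACTH receptors and the stress axis passed, and their median was 0.062. Pomc, the precursor of ACTH, measured 4.72, 5.66, 5.20 and 5.34 in BYA, against 5.14, 5.38, 5.07 and 5.57 in BNS. The groups overlapped, and the difference was -0.06 ± 0.24. Mc3r (-0.29) and Mc4r (0.01), melanocortin receptors of the brain, Nr3c1 (-0.07), the glucocorticoid receptor, and Hsd11b1 (0.30), which regenerates glucocorticoid in tissue, did not pass. Avp, vasopressin, varied within both groups, with 0.19, 2.22, 1.19 and 0.55 in BYA, against 2.61, 3.60, 0.38 and 1.72 in BNS (-1.04 ± 0.73). Crh, corticotropin-releasing hormone, had 0.78 ± 0.65.

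Of the other ARC peptides, none besides Gal passed, and the median of the 23 was 0.116. Npy read 5.67, 6.56, 6.23 and 6.74 in BYA, against 6.26, 7.09, 6.24 and 7.18 in BNS (-0.39 ± 0.21), and Agrp had -0.26 ± 0.28. Both promote feeding and their groups overlapped. Cartpt, an appetite-suppressing peptide, read 4.33, 4.15, 3.87 and 4.15 in BYA, against 3.00, 3.17, 3.55 and 3.43 in BNS, without overlap, and its difference of 0.84 ± 0.36 had an adjusted p of 0.446. Sst (-0.08), Ghrh (-0.04), Kiss1 (0.19), Tac3 (0.17) and Th (0.03), of the growth, reproductive and dopamine neurons, had small differences. Cck was highest at 1.05 ± 0.67, and Scg2, a granin of secretory granules, lowest at -0.74. The 26 ARC receptors and transcription factors had a median of 0.015 with none past the threshold.

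Complement, the plasma cascade that marks targets for phagocytes and whose C5a receptor PMX53 blocks, had 24 measured genes. None passed in either direction, 21 had a positive difference and the median was 0.483. In BYS minus BNS, which shares the BNS samples, the median was 0.459, and in BYA minus BYS it was 0.055. Cfb, factor B of the alternative pathway, read 0.09, 0.47, 0.08 and 0.51 in BYA, against -0.84, -1.43, -1.05 and -1.0 in BNS (1.37 ± 0.40, adjusted p = 0.210). C3, on which all pathways meet, read -1.08, -0.12, -0.57 and -0.76 in BYA, against -1.55, -1.96, -1.46 and -2.96 in BNS (1.35 ± 0.46). Both genes were without overlap. C5ar1 itself had 0.78, C1qa 0.62 and C1qb 0.63, whereas C3ar1 had 0.05 and Cfp -0.35. The 20 interferon and antigen presentation genes had a median of 0.514, with Cd74, the class II invariant chain, highest at 1.51 ± 0.51 and Stat2 lowest at -0.03.

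Microglia markers, 16 measured, had 14 positive differences and a median of 0.447 with none past the threshold, and the list's median level overlapped between the groups, at 1.38 to 1.74 over BYA samples and 1.36 to 1.78 over BNS samples. Cd14, a lipopolysaccharide co-receptor, was highest at 1.81 ± 0.59 and Cd68, of phagocyte lysosomes, had 0.94. Of the receptors and proteins typical of resident microglia, Csf1r had 0.69, Cx3cr1 0.41 and Aif1 0.39, whereas P2ry12 had -0.02 and Tmem119 -0.52. Blood cell markers, 9 measured, had a median of 0.610 with none past the threshold. Hba-a1, a haemoglobin chain, read 6.11, 6.41, 6.45 and 7.05 in BYA, against 5.53, 5.92, 5.69 and 6.08 in BNS (0.70 ± 0.35), and Slc4a1, the red cell anion exchanger, had 0.93. Their part in the myeloid and chemokine differences was not tested.

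Mature oligodendrocyte markers all had a positive difference, 14 of 14 measured, with a median of 0.713, yet none passed. The list's median level was -0.47 to -0.13 over BYA samples and -1.53 to -0.68 over BNS samples, so that the ranges did not overlap. Mobp, a myelin protein of the compact sheath, read 1.04, 0.46, 0.70 and 1.58 in BYA, against -0.97, -1.53, 0.22 and -1.16 in BNS (1.81 ± 0.65, adjusted p = 0.338). Mog, on the outer face of myelin, had 1.60, and Mbp, a major myelin protein, had the lowest difference, 0.22. In the same fit the list's median was 1.248 in BYS minus BNS and 0.385 in BYP minus BNS, which share the BNS samples. It was 0.138 in BYA minus SNS and -0.511 in BYA minus BYS, which share the BYA samples. Precursor markers had a median of -0.042, astrocyte markers 0.162, neuron markers 0.026 and endothelial markers -0.043, each with none past the threshold.

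Markers of tissue next to the ARC were measured too. Pmch, melanin-concentrating hormone of the lateral hypothalamus, read 5.92, 5.19, 5.29 and 5.00 in BYA, against 4.12, 4.52, 3.21 and 4.39 in BNS, without overlap (1.29 ± 0.55, adjusted p = 0.446), and the 14 markers of neighbouring nuclei had a median of 0.307. Emx1, a homeobox gene of the cortex, was the only one of 8 thalamus, cortex and hippocampus markers past the threshold. It read -0.18, -0.27, -0.15 and -0.24 in BYA, against -0.99, -1.16, -1.03 and -1.32 in BNS (0.92 ± 0.14, adjusted p = 0.0091), while the list's median was 0.143. The part of dissection in the differences was not tested.

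**Figure D3:**
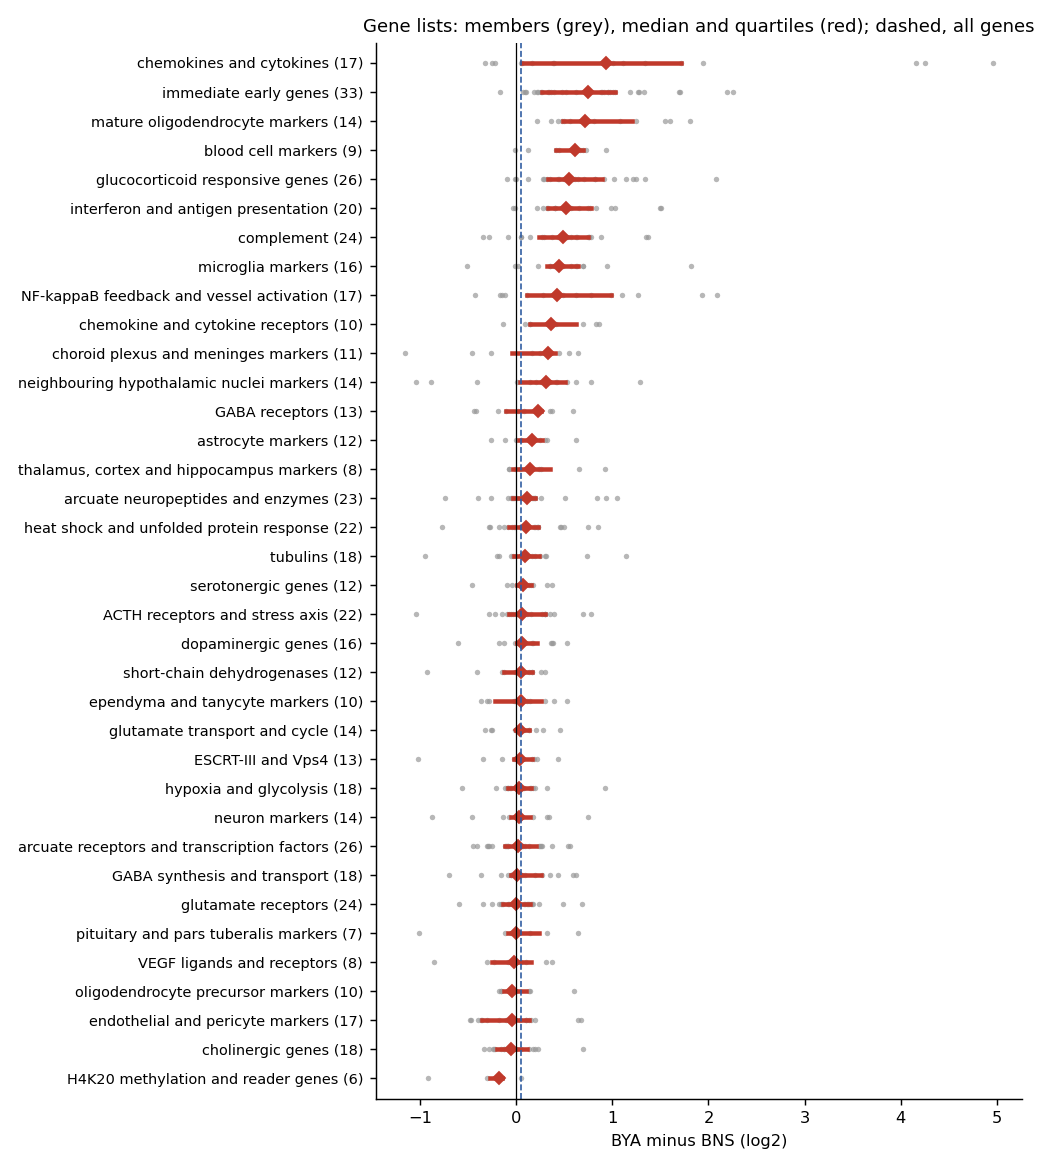
Median difference BYA minus BNS (log2, x axis) of 36 gene lists, with the 0.046 median of all genes marked. Chemokines and cytokines (0.931), immediate early genes (0.748) and mature oligodendrocyte markers (0.713) had the highest medians, and H4K20 methylation and reader genes (-0.177) the lowest.

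The neurotransmission lists had no gene past the threshold, which 0.241% of all genes passed. Their medians were 0.001 for 24 glutamate receptors, 0.041 for 14 glutamate transport and cycle genes and 0.228 for 13 GABA receptors. The median was 0.008 for 18 GABA synthesis and transport genes, -0.053 for 18 cholinergic, 0.060 for 16 dopaminergic and 0.067 for 12 serotonergic genes. That of the GABA receptors lay above the upper quartile of all genes, 0.208, and ranged from 0.074 to 0.306 over the alternatives. Serotonergic genes had a median level at the 6.5th percentile of BNS and cholinergic genes at the 30.4th. Small differences at such low levels say little about these genes. The GABA-A subunit Gabra2 read -0.08, -0.08, -0.70 and -1.06 in BYA, against -0.07, -0.02, -0.04 and -0.04 in BNS. Its difference of -0.44 rested on BYA replicates 3 and 4, and the subunit Gabrb2 had 0.59. Of the metabotropic glutamate receptors, Grm2 was highest at 0.68 and Grm3 lowest at -0.59. The 78 ribosomal protein genes (median 0.042), the 82 respiratory chain and ATP synthase genes (0.057), 22 heat shock genes (0.097) and 18 hypoxia and glycolysis genes (0.028) had none past the threshold and medians close to that of all genes.

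The other increases were mostly genes of low level. Of the 27, 22 lay below the 40th percentile of BNS levels, and all were positive in both dyes. In 26 the difference was larger in the Cy5 samples, with a median of 1.56, than in the Cy3 samples, with a median of 1.02. At low levels the Cy5 values of BNS reached further down than its Cy3 values. Tmem104, a transmembrane protein, read -0.81, -0.99, -0.86 and -1.0 in BYA, against -2.06, -3.17, -2.06 and -3.30 in BNS, where the lower pair are the Cy5 samples (1.74). Vom1r57 (2.29), Vom1r37 (1.52) and Vom1r23 (1.01) are receptors of the vomeronasal organ and Or5h25d (0.92) is an olfactory receptor. Ccdc69 (1.89), Trim42 (1.78), Rdh8 (1.46), a retinol dehydrogenase of photoreceptors, Mansc1 (1.45), the beta-defensin Defb36 (1.24), Mrgprb4 (1.22), a receptor of sensory neurons in mice, and Dnah17 (0.88), a dynein of sperm tails, were of this kind too. Dffb (1.24) encodes the nuclease that cuts DNA in apoptosis, Plaat5 (0.90) an acyltransferase and Cep164 (0.70) a centriole protein needed for cilia.

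Several increases encode regulators or immune proteins. Etv3, an ETS-family repressor, read 0.67, 0.54, 0.05 and -0.37 in BYA, against -0.93, -1.33, -1.05 and -1.28 in BNS, and -0.06, 0.47, 0.17 and -0.02 in SNS. BYA and SNS overlapped and BNS stood apart below both (BYA minus BNS 1.37, BYA minus SNS 0.07). Arnt2, a partner of hypothalamic transcription factors such as Sim1, was tight in both groups, with 1.18, 1.19, 1.23 and 1.24 in BYA, against 0.46, 0.29, 0.35 and 0.35 in BNS (0.85), although its 2 spots gave 0.39 and 1.30. Cst7, a cystatin of immune cells, read -0.55, -0.94, -0.56 and -0.97 in BYA, against -1.30, -1.95, -1.24 and -1.88 in BNS (0.84). Cd3d, a chain of the T cell receptor complex, read -0.55, -0.73, -0.56 and -0.75 in BYA, against -1.23, -1.55, -1.21 and -1.58 in BNS (0.75), and its 10 spots ranged from 0.36 to 1.17.

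The other groups give these genes beside BYA and BNS, in contrasts that share the BNS or BYA samples and are not independent of the choice of genes. All 27 increases were positive in BYS minus BNS and 23 of them passed, in a contrast where 8.84% of all genes were higher. Ccl3 had 4.00 there, Arc 1.30 and Nfkbia 1.04. All 27 were positive in BYP minus BNS too, where 0.0301% of all genes were higher and 3 of the 27 passed in limma. These were Pth2 with 1.07 (adjusted p = 0.0262), Lrrc25 with 1.01 (adjusted p = 0.0207) and Etv3 with 1.65 (adjusted p = 0.0228). BNS minus SNS was negative for all 27, from -1.87 for Ccl3 to -0.14 for Nfkbia. It was -1.30 for Etv3, -0.76 for Lrrc25 and -0.73 for Pth2. No gene was past the threshold and lower in that contrast (0% of all genes). In BYA minus SNS, where 0.00752% of all genes were higher, none of the 27 passed.

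**Figure D4:**
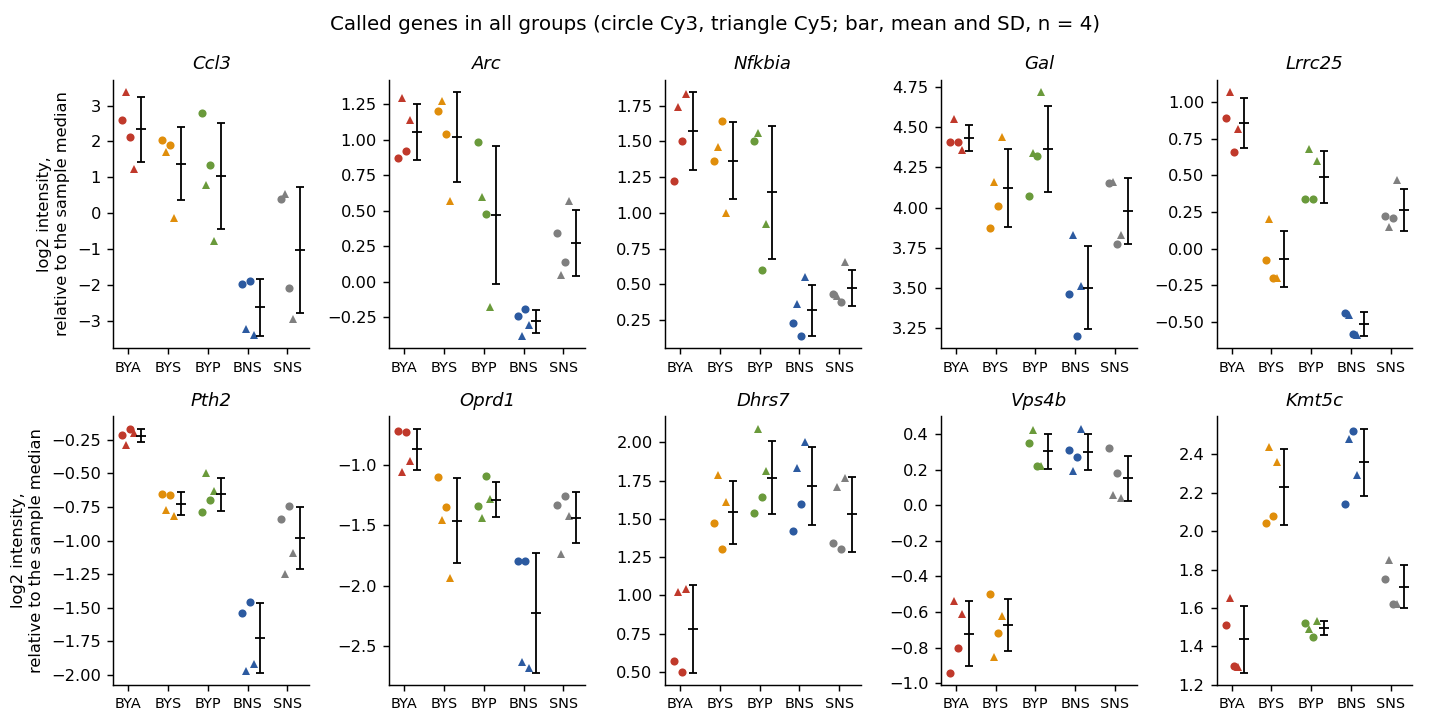
Log2 intensity relative to the sample median (y axis, a scale of its own in each panel) of 10 genes past the threshold in all 20 samples of BYA, BYS, BYP, BNS and SNS, circles for Cy3, triangles for Cy5, bars for the mean and SD (n = 4). All the increases shown, Lrrc25 and Pth2 among them, have their highest mean in BYA. Arc exceeds BYS by only 0.04 there, and Gal exceeds BYP by 0.07. Vps4b is low in BYA and BYS only, with BYP, BNS and SNS samples at or above 0.04.

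The 5 decreases were below every BNS value in every BYA sample, as were 2.77% of all genes. Dhrs7, a short-chain dehydrogenase of the endoplasmic reticulum, read 0.57, 1.02, 0.50 and 1.04 in BYA, against 1.42, 1.83, 1.60 and 2.00 in BNS. Its difference of -0.93 ± 0.13 (adjusted p = 0.00319, limma) passed with each of the 8 samples left out in turn. Dhrs7 was also lower in BYA than in BYS (-0.76, adjusted p = 9.96e-04), BYP (-0.99, adjusted p = 0.00423) and SNS (-0.75, adjusted p = 0.0402), contrasts that share the BYA samples and in which 3.66%, 0.0301% and 0.015% of all genes were lower. The spots of Dhrs7, Vps4b, Tubb2b and Vegfc lay in an array area that was low in BYA, described below. Vps4b, the ATPase that takes apart the ESCRT-III membrane-cutting complex, read -0.94, -0.54, -0.80 and -0.61 in BYA, against 0.31, 0.19, 0.27 and 0.43 in BNS (-1.03 ± 0.16, adjusted p = 0.0117). BYS samples, at -0.50, -0.85, -0.72 and -0.62, lay close to BYA, and BYP samples, at 0.22 to 0.42, close to BNS.

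Tubb2b, a beta-tubulin of growing neurons and among the brightest genes, read 5.40, 6.02, 5.31 and 5.55 in BYA, against 6.27, 6.70, 6.21 and 6.88 in BNS (-0.95 ± 0.16, adjusted p = 0.0201). BYA was below BYS (-0.61, adjusted p = 0.0282), BYP (-1.02, adjusted p = 0.0208) and SNS (-0.95, adjusted p = 0.0402) as well. The other measured tubulins of the 18 did not pass, and Tubb6 had the highest difference, 1.14. Kmt5c, which trimethylates histone H4 in heterochromatin, read 1.51, 1.65, 1.30 and 1.29 in BYA, against 2.14, 2.48, 2.52 and 2.29 in BNS (-0.92 ± 0.16, adjusted p = 0.0201). Its paralogue Kmt5b had -0.30 ± 0.13. In BYP, Kmt5c read 1.52, 1.49, 1.45 and 1.53, close to BYA, and in SNS 1.75, 1.85, 1.62 and 1.62. BYS samples, at 2.04, 2.44, 2.08 and 2.36, lay close to BNS. BNS minus SNS was 0.63 for Kmt5c. Vegfc, a growth factor of lymphatic vessels, read -1.0, -1.31, -1.05 and -1.38 in BYA, against -0.19, -0.44, -0.38 and -0.33 in BNS (-0.85 ± 0.15, adjusted p = 0.0219). The decreases were nearly the same size in both dyes, with medians of -0.93 in Cy3 and -0.91 in Cy5. Without BNS replicate 2 Kmt5c did not pass, and without BNS replicate 4 Tubb2b and Vegfc did not.

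Spots of 4 of the 5 decreases, Vegfc, Tubb2b, Dhrs7 and Vps4b, lay close together on the array, in rows 12 to 36 and columns 41 to 45 of a layout of 85 columns inferred from the spot order. That area was chosen after the values were seen. Its 88 spots with values had a median difference of -0.51, and 52.3% of them lay below -0.5, beside 5.49% of 32635 spots of the whole array. In BYA the area deviated from the array by -0.437, -0.587, -0.126 and -0.456, and in BNS by 0.086 to 0.138. It deviated by 0.101 to 0.201 in BYP, 0.064 to 0.220 in SNS and -0.221 to 0.114 in BYS. The differences of Dhrs7 and Tubb2b from these groups were not refitted with the local trend subtracted. The part of the area in them was not tested. The spots around each decrease had median differences of -0.57 (Vegfc), -0.36 (Tubb2b), -0.30 (Vps4b), -0.28 (Dhrs7) and -0.27 (Kmt5c, elsewhere on the array). With the spots of the area left out, 24 genes passed, 23 higher and 1 lower. Vegfc, Tubb2b, Dhrs7 and Vps4b have 1 spot each, so they were no longer tested in that fit. Its count of decreases therefore says nothing about these 4 genes. With the local trend subtracted the differences were -0.75 for Vps4b, -0.67 for Kmt5c, -0.65 for Tubb2b, -0.60 for Dhrs7 and -0.50 for Vegfc, with adjusted p of 0.0300, 0.0228, 0.0511, 0.0323 and 0.0179 in that order. Tubb2b did not pass there, nor with a finer window (-0.54, adjusted p = 0.0866), where Vegfc (-0.38, adjusted p = 0.172) did not pass either.

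**Figure D5:**
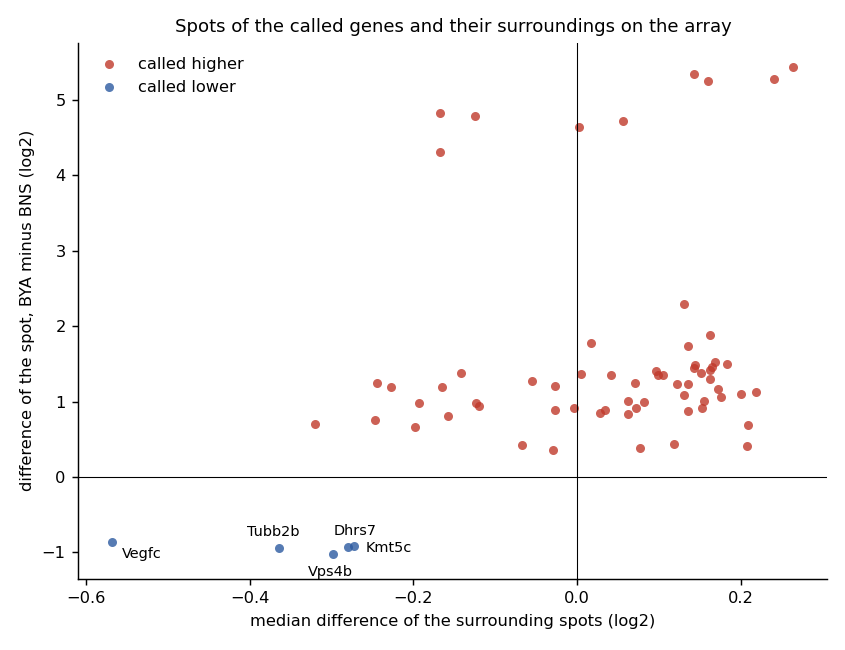
Each spot of the 32 genes past the threshold, with the median difference BYA minus BNS of the spots around it (x axis, log2) against its own difference (y axis, log2), red for genes called higher and blue for genes called lower. All 5 blue spots have negative surroundings, from -0.57 to -0.27.

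Among the 32 genes, 7 passed with each of the 8 samples left out in turn: Lrrc25, Pth2, Oprd1, Tmem104, Emx1, Dhrs7 and Vps4b. Each of the 7 was measured by 1 spot. The others lost the call without at least 1 sample, most often BNS replicate 4 (23 genes) or BNS replicate 2 (21 genes).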

How the data were processed

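The deposited values were relative intensities on a linear scale, with a column per sample and 44254 spots, which the authors made with Agilent Feature Extraction 10.7.3.1 per the labels; how the background, dyes and scale were handled is not given in the sources used here. Intensities were taken to log2 and centred on each sample's median over complete genes. Samples had 34107 to 44249 spots with a value. Spots were named through RefSeq by accession (27361), symbol (3488) or synonym (785), 12 as annotated, and 12608 had no symbol. A gene's value is the mean of its spots complete in all 20 samples (12493 genes), otherwise its most complete spot with at least 3 values in every group (799 genes).

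All 20 samples were fitted in limma 3.58.1 (R 4.3.3, Python 3.11.15) with group and dye terms and the array as a random block (correlation 0.436). P-values are two-sided, Benjamini-Hochberg adjusted over 13292 genes, threshold 0.05. Every gene past the threshold is named, with key members and the highest and lowest of each list described. The comparison and the lists were chosen with earlier results of these data known, so lists carry counts and medians and no test. The number of arrays limits the precision. Alternatives covered dye, array, slide, centring, local trend, filters, spot choice, left-out samples and the methods' t-test.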

Additional observations from a re-analysis of the deposited data

Results flagged for a closer look

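Within a group of 4, a sample that stood apart from the other 3 beyond the 95% critical value of Dixon's ratio was found in 17 of the 445 gene and group pairs examined among 225 named genes. None of the flagged genes passed the threshold. For draws from a single normal distribution, chance flags about 1 in 20 groups. The values were not adjusted for dye, and each group mixes Cy3 and Cy5 samples, so that rate may not hold here. In BYA replicate 1, Agrp read 5.16 (the other BYA samples 5.78 to 5.88), C1qc 0.09 (0.41 to 0.47), Cd74 -1.02 (-0.18 to -0.03), Gria1 0.23 (0.48 to 0.53), Oxt -0.11 (0.23 to 0.28) and Tac3 2.59 (2.91 to 2.95), each lower than the rest. Its Slc18a2 was higher, at 2.83 (2.28 to 2.31). BYA replicate 2 was high for Hspb1, a small heat shock protein, at 2.68 (1.38 to 1.54), and for Ier2, an early response gene, at 2.54 (1.74 to 1.83). BYA replicate 3 was low for Mbp, 2.58 (3.19 to 3.25), and for Slc12a2, 0.42 (0.78 to 0.85). BYA replicate 4 was low for Cfp, -2.21 (-1.31 to -1.19), and Il1b, -2.55 (-1.03 to -0.97). Among BNS samples, replicate 3 was low for Cebpd, 1.49 (1.71 to 1.72), and Chrna4, -0.56 (0.22 to 0.38), and high for Gls2, 1.39 (0.93 to 0.99), and replicate 4 was low for Cga, -2.58 (-1.26 to -0.99).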

How the results depend on the processing

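The count of 32 genes (84.4% higher in BYA) depended on the processing. It was 406 with no array block, 381 with no dye term (293 higher), 187 after quantile normalization (158 higher), 138 with the local trend removed (164 with a finer window), 66 with the lowest 25% of genes left out, 122 with SNS replicate 2 taken as Cy3 and 178 without that sample. It was 16 from BYA and BNS alone, 2 with slide as a random block, 3 in Cy3 samples alone, 0 in Cy5 samples alone (1091 at an unadjusted p under 0.05 in limma), 20 with the brightest spot of each gene, 10 with the 75th percentile as centre (5 higher, 5 lower), 10 without centring (7 higher, 3 lower) and 12 with complete spots as centre (7 higher, 5 lower). The last and the finer window were chosen after seeing the data. The methods' t-test gave 1179 genes unadjusted and 0 after Benjamini-Hochberg. Leaving out 1 sample gave 9 to 84. Without the array of BYA replicates 1 and 2 it was 413 (80 higher), without that of BYA replicates 3 and 4 it was 24 (6 higher), and without those of BNS 11 (replicates 1 and 2) or 4 (replicates 3 and 4). With the replicate block 14 passed (9 higher, 5 lower); the numbers do not pair the samples, since same-numbered deviations correlated by 0.044, 0.182, 0.106 and -0.012. No gene past the threshold changed direction. Pth2 and Lrrc25 passed in 31 of 32 alternatives other than the methods' t-test, Oprd1 in 28, Ccl3 in 26, Gal in 20, Arc in 16 and Nfkbia in 15. Over the alternatives the medians stayed positive, 0.484 to 0.954 for immediate early genes, 0.514 to 1.026 for chemokines and cytokines and 0.394 to 1.135 for mature oligodendrocyte markers. The cause of these shifts was not tested. Spots near the floor of the scale limit the precision of the low-level genes.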

Other observations

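Some genes of other groups moved little or in mixed directions between BYA and BNS. Elavl4, a neuronal RNA-binding protein, lay just outside the threshold, at -0.88 ± 0.18 (adjusted p = 0.0570), while the 14 neuron markers had a median of 0.026. The choroid plexus and meninges markers had a median of 0.330 over 11 genes with none past the threshold, yet Ttr, the transport protein that choroid plexus makes in bulk, had the lowest difference of the list, -1.16. Dnajb9, an endoplasmic reticulum chaperone, had -0.77 and Hspb1, a small heat shock protein, 0.85 within the 22 heat shock and unfolded protein response genes, which had a median of 0.097.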
